A study of Rattus norvegicus with 8 samples.

Results

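The unfolded protein response is the programme by which a cell answers misfolded protein in the endoplasmic reticulum (ER), and 10 of its genes were followed here in rat colon: Ern1, Xbp1, Atf6, Atf4, Ddit3, Hspa5, Hsp90b1, Pdia4, Dnajb9 and Herpud1. Members were the genes whose symbol in the array files equals one of these names. They came to 10 of 18165 genes tested, measured by 11 probes, and all 10 passed the filter on low signal. The rats were female Wistar animals, 14 weeks old, and their colon RNA was hybridised to 8 Agilent 1-colour arrays, 2 for each of 4 groups. The healthy group ate sunflower oil and received no dextran sulfate sodium (DSS), which damages the colonic mucosa and causes colitis. The n-6 colitis group ate the same kind of oil, which is rich in n-6 fatty acids. The ALA colitis group ate alpha-linolenic acid, a plant n-3 fatty acid, and the fish oil colitis group ate long-chain n-3 fatty acids. Each diet lasted 8 weeks, and the 3 colitis groups received 5% DSS for 7 days. The labels describe every sample, colitis included, as colon of a healthy rat, and the groups here follow the sample titles. The study set each n-3 diet against the n-6 diet.

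The limits of this design bear on every value below. RNA of 6 rats was pooled, out of 6 healthy rats and 10 in each colitis group. Both healthy arrays therefore carried the same 6 rats, and whether a colitis group's 2 arrays carried 1 pool or different pools is not stated. The p-values thus measure only the spread between arrays, which may be technical, with n = 2 in every group. All 8 arrays lay on 1 slide. Healthy and ALA arrays filled its first row and the other groups the second, while ALA and fish oil arrays held the first columns and the other groups the last. Any pair of groups therefore differs in slide row or in slide column, from which the group cannot be told apart. In a tissue sample, fewer cells of a type and less RNA per cell cannot be told apart either.

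In this response, membrane-bound sensors in the ER detect unfolded protein and signal to the nucleus. The sensor IRE1, encoded by Ern1, splices the Xbp1 message so that it encodes an active transcription factor. ATF6 moves to the Golgi, is cut by proteases and enters the nucleus as a transcription factor. PERK, encoded by Eif2ak3, slows translation while favouring translation of Atf4, whose product can induce Ddit3 (CHOP, a factor linked to cell death). Xbp1 and ATF6 drive genes for ER chaperones and for ER-associated degradation. The colon epithelium is rich in secretory cells, among them goblet cells, that depend on this system. Splicing, cleavage, phosphorylation and translation are not read by these arrays, which measure message level only.

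The 200 bases before the transcription start are shown for the 4 genes in which the ER stress response element (ERSE) or its variant ERSE-II was found, because they include the chaperone genes with the most alike levels below. Sequences and positions are from RefSeq on the GRCr8 build, which held promoters for 8 of the 10 genes, and Atf6 and Ern1 were not among them. Each is written in the direction of transcription, with the matched element in capitals.
Hspa5, chr3:38452816-38453015, plus strand: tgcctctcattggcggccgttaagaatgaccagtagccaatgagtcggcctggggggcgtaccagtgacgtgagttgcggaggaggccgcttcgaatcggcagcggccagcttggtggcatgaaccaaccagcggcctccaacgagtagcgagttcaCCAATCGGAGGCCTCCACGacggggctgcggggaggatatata
Hsp90b1, chr7:23012294-23012493, minus strand: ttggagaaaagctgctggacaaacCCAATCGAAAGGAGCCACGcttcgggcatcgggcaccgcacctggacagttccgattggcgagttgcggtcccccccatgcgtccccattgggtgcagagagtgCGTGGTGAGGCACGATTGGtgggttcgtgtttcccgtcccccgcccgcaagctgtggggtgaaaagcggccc
Xbp1, chr14:84604423-84604622, plus strand: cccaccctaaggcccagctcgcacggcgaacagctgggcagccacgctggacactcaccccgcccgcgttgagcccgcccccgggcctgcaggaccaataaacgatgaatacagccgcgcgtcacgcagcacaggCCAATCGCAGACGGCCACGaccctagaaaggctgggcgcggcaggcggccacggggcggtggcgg
Herpud1, chr19:10614708-10614907, minus strand: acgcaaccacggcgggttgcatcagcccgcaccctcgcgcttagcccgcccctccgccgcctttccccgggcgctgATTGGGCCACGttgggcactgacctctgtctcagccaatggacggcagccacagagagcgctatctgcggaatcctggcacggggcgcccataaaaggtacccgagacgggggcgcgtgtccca
The ERSE was searched as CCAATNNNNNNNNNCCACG on both strands. It stood 43 bases before the start of Hspa5 and 65 before that of Xbp1. Hsp90b1 held 2 copies, a forward match beginning 176 bases and a reverse match beginning 72 bases before its start. ERSE-II, searched as ATTGG and CCACG with 1 base between them on both strands, was found in Herpud1 at 124 bases before the start. The same promoter held the ATF4 element core, TTGCATCA, at 184 bases. None of the 3 letter strings was found in the 250 bases before Ddit3, Atf4, Dnajb9 or Pdia4. Over the same window of all 33469 promoters, 0.0657% held the ERSE, 0.0418% ERSE-II and 0.693% the ATF4 core. A match of letters is a description of the window and shows no binding.

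The array probes are 60 bases long, and those of Hsp90b1, Atf6, Atf4 and Ern1 are shown because their values need the probe to be known. The array files give the positions on the rn4 build, and no exon annotation of that build was used here.
Hsp90b1, chr7:23334474-23334623, minus strand: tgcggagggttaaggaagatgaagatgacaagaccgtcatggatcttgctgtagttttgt
Atf6 dim probe, chr13:86545071-86545130, minus strand: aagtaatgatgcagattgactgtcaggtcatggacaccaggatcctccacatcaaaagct
Atf4, chr7:118538840-118538899, plus strand: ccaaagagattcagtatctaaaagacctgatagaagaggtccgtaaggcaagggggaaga
Ern1, chr10:95794565-95794624, minus strand: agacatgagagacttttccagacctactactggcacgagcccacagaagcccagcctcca
The Hsp90b1 probe spans 150 bases of the genome, more than its 60 bases, so it crosses an intron. Atf6 has another probe, which is brighter and represents the gene below, at chr13:86543773-86543832. Of the last 30 bases of that bright probe, 19 are A. Of the other probes, positions are chr3:13787739-13787798 for Hspa5, chr14:86156913-86156972 for Xbp1, chr7:67252505-67252564 for Ddit3, chr6:63583604-63583663 for Dnajb9 and chr19:11036709-11036768 for Herpud1.

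Colon markers were present on the 8 arrays. A level in what follows is the log2 signal minus that of the array's own 75th percentile, so 0 is that percentile, and levels of different probes cannot be compared. The epithelial gene Epcam lay between 3.95 and 5.34 and the smooth muscle gene Myh11 between 6.07 and 7.16. Spots well above background made up 59.5% on fish oil array 1, the dimmest array, and up to 73.7% on the others. Of 12 cell type marker lists, 1 held genes past the threshold, the red cell list. In n-6 colitis against healthy, 4 of its 5 measured genes were higher, and 3 were lower in each of ALA and fish oil against n-6, by limma with adjustment over all genes. The summed level of that list (linear, relative to the 75th percentile) was 267 and 177 on the n-6 arrays and between 6.97 and 14.7 on the other 6. The fibroblast sum was 182 and 114 against 47.6 to 78.6. The epithelial sum was 162 on n-6 array 1 and between 263 and 652 on the other 7 arrays. Median log2 differences of the lists in that comparison were -0.72 for epithelium, -0.65 for colonocytes, 0.77 for goblet cells, 0.21 for plasma cells, 2.56 for B cells and -0.17 for T cells. They were 1.83 for neutrophils, 1.41 for macrophages, 1.07 for fibroblasts, 0.12 for smooth muscle, 0.23 for neurons and glia and 4.90 for red cells. The medians for fish oil against n-6 were 1.52 for epithelium, -3.73 for B cells, -1.02 for fibroblasts, -1.0 for plasma cells and -4.44 for red cells, and those of the other 7 lists lay between -0.84 and 0.64. In ALA against n-6 they were -3.86 for red cells and between -0.79 and 1.23 for the other 11 lists. The part of these differences in the values below was not tested.

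None of the 10 genes passed the test in any of 7 comparisons (limma, Benjamini-Hochberg adjustment over all 18165 genes, threshold 0.05). Of all genes, 0.0385% passed in n-6 colitis against healthy, 0.033% in ALA against n-6 and 0.0385% in fish oil against n-6. In each of the other 4 comparisons 0% passed. The smallest adjusted p among the 10 genes, by limma, was 0.253, for Atf6 in n-6 colitis against healthy. At an unadjusted p under 0.05, 1 gene was higher in n-6 colitis against healthy (Atf6, in a comparison where 6.6% of all genes were higher at that limit), and 1 was lower in fish oil against n-6 (Hspa5, where 5.96% were lower). Atf6 was also the 1 gene higher at that limit in ALA colitis against healthy (4.33% of all genes) and in the mean of the 3 colitis groups against healthy (3.97%). On simulated data for n-6 colitis against healthy, the test called 0.373% of genes changed by 1 log2 unit and 21.3% at 2 units. A gene that did not pass is therefore not shown to be unchanged. The values are given gene by gene because their intervals show how large a difference the arrays leave possible.

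The sensor gene Ern1 encodes IRE1. Its level was -4.24 and -5.14 on the healthy arrays, -3.89 and -4.11 with n-6, -3.40 and -5.10 with ALA, and -4.98 and -4.74 with fish oil. Both n-6 arrays lay above both healthy and both fish oil arrays, while 1 ALA array was the highest of the 8 and the other was next to the lowest, 1.70 apart. The difference of n-6 colitis from healthy was 0.69 ± 0.59 (SE, 95% interval -0.70 to 2.07), with an adjusted p of 0.645 in limma. The probe was dim, with intensities from 3.66 to 27.2, and was not well above background on fish oil array 1. With normexp background correction, fish oil minus n-6 colitis was 0.23, where the median of all genes was also 0.23, in place of -0.86 against a median of 0.01.

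The Xbp1 probe reads the message of the transcription factor that IRE1 splices, and nothing here separates its spliced form. The healthy arrays read 1.32 and 1.67, the n-6 arrays 1.67 and 1.52, the ALA arrays 1.49 and 1.24 and the fish oil arrays 1.02 and 0.95. The fish oil arrays were the lowest of the 8, below every array of the other 3 groups. Fish oil minus n-6 was -0.61 ± 0.29 (SE, 95% interval -1.31 to 0.08), with a limma adjusted p of 0.438. Against healthy, n-6 colitis differed by 0.10 (95% interval -0.59 to 0.80), and the arrays overlapped. Xbp1 had the narrowest range of the 10 genes over the 8 arrays, 0.72.

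Atf6, the sensor that is itself a transcription factor, had the largest difference between the mean of the colitis groups and healthy. Its bright probe read -1.36 and -1.15 on the healthy arrays, -0.14 and -0.30 with n-6, 0.28 and -0.38 with ALA, and -0.80 and -0.52 with fish oil. All 6 colitis arrays lay above both healthy arrays, as did those of 5.05% of all genes. The group means with SD were -1.26 ± 0.15 in healthy colon, -0.22 ± 0.12 with n-6, -0.05 ± 0.47 with ALA and -0.66 ± 0.20 with fish oil (n = 2 each). The mean of the colitis groups exceeded healthy by 0.95 ± 0.27 (SE, 95% interval 0.30 to 1.59), which limma placed at an unadjusted p of 0.011 and an adjusted p of 0.479. For n-6 colitis the difference was 1.04 (95% interval 0.24 to 1.83, unadjusted p 0.018) and for ALA colitis 1.21 (0.41 to 2.0, unadjusted p 0.0088, adjusted p 0.711), in the same limma fit. These contrasts share the healthy arrays.

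The dim Atf6 probe did not show this separation. It read -4.83 and -4.76 on the healthy arrays, -5.21 and -4.46 with n-6, -3.84 and -4.43 with ALA, and -4.48 and -5.18 with fish oil. Its healthy arrays lay inside the range of its colitis arrays, and the mean colitis difference from healthy was 0.19 ± 0.34 (SE). This probe was well above background on 4 of 8 arrays, against 8 of 8 for the bright one. In the authors' deposited table, which gives 1 value per gene and does not state how the probes were joined, Atf6 minus healthy was 1.30 with n-6, 1.43 with fish oil and 0.04 with ALA, and 0.92 for the mean of the colitis groups. That value lay far from the bright probe on healthy array 2 (-2.91 against -1.15) and n-6 array 2 (-1.54 against -0.30). The same held for ALA array 1 (-1.79 against 0.28, a gap of 2.08) and ALA array 2 (-2.40 against -0.38). On the other arrays, both fish oil arrays included, it lay close to the bright probe. The group differences of that table therefore do not rest on 1 reading of Atf6 shared by all arrays.

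Atf4 encodes the factor translated when PERK is active. The healthy arrays read 4.50 and 4.15, the n-6 arrays 5.11 and 5.08, the ALA arrays 5.09 and 4.24 and the fish oil arrays 4.65 and 4.57. The n-6 and fish oil arrays lay above both healthy arrays, and the ALA pair reached from the healthy range to the n-6 range. In n-6 colitis the excess over healthy was 0.77 ± 0.36 (SE, 95% interval -0.08 to 1.63), the largest after Atf6, with an unadjusted p of 0.070 and an adjusted p of 0.395 in limma. This probe has 10 spots on each array, where the others have 2. The PERK gene itself, Eif2ak3, which is not among the 10 and is given for its role, read 0.47 and 0.69 in healthy colon, 0.88 and -0.09 with n-6, 1.02 and 0.79 with ALA, and 0.18 and 0.41 with fish oil. Its n-6 arrays enclosed both healthy arrays.

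Ddit3, the gene of CHOP, read 2.78 and 2.65 on the healthy arrays, 2.92 and 3.49 with n-6, 3.04 and 2.72 with ALA, and 3.56 and 3.15 with fish oil. Fish oil and n-6 arrays lay above both healthy arrays, and 1 ALA array fell between the healthy arrays. The fish oil excess over healthy was 0.64 ± 0.34 (SE, 95% interval -0.16 to 1.44), with an adjusted p of 0.995 in limma. It was the only one of the 10 whose group mean was highest with fish oil. Ddit3 and Pdia4 were the 2 genes higher in fish oil than in n-6, by 0.15 and 0.09. With 1 array left out at a time, these differences ran from -0.13 to 0.43 and from -0.37 to 0.55, so neither kept its direction.

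Of the chaperones, Hspa5 and Hsp90b1 had the most alike levels over the arrays, and Pdia4 and Dnajb9 followed them less closely. Hspa5 encodes BiP (GRP78), the main ER chaperone of the HSP70 family. Its arrays read 4.56 and 4.98 in healthy colon, 5.51 and 5.06 with n-6, 4.28 and 4.96 with ALA, and 4.46 and 4.29 with fish oil. Both n-6 arrays were above the other 6, and both fish oil arrays were below both healthy arrays. Group means with SD were 4.77 ± 0.30, 5.29 ± 0.32, 4.62 ± 0.48 and 4.38 ± 0.12 in the same order (n = 2 each). Fish oil minus n-6 was -0.91 ± 0.36 (SE, 95% interval -1.77 to -0.05), a 1.88-fold lower level, with an unadjusted p of 0.041 and an adjusted p of 0.407 in limma. ALA minus n-6 was -0.67 (95% interval -1.53 to 0.19), and n-6 minus healthy was 0.52 (95% interval -0.34 to 1.38). ALA and fish oil differed by 0.24 (95% interval -0.62 to 1.1), and their arrays overlapped.

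Hsp90b1 encodes GRP94, the ER member of the HSP90 family. It read 1.93 and 2.54 in healthy colon, 2.97 and 2.44 with n-6, 1.56 and 2.43 with ALA, and 2.32 and 1.87 with fish oil. The n-6 arrays lay above the ALA and fish oil arrays but overlapped the healthy ones. ALA minus n-6 was -0.70 ± 0.43 (SE, 95% interval -1.72 to 0.31), and fish oil minus n-6 was -0.61 (95% interval -1.63 to 0.41). The difference of n-6 from healthy, 0.47, rested on 1 spot. On healthy array 1 the 2 spots of this probe read 1159 and 2842, a ratio of 2.45, where the next largest ratio among 63 spot pairs of these genes was 1.21 and the median 1.03. The brighter spot carried the scanner software's outlier flag and was left out. With it kept, the level was 2.71 in place of 1.93 and the difference of n-6 from healthy 0.08.

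Pdia4 encodes a protein disulfide isomerase, which forms and reshuffles disulfide bonds. Its arrays read -1.11 and -0.68 in healthy colon, -1.19 and -1.64 with n-6, -2.55 and -1.08 with ALA, and -0.86 and -1.78 with fish oil. Both n-6 arrays were below both healthy arrays, the reverse of Hspa5. The ALA arrays differed by 1.47, more than the range of the 4 group means, 0.92. The difference of n-6 from healthy was -0.52 ± 0.56 (SE, 95% interval -1.84 to 0.80), with a limma adjusted p of 0.723.

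Dnajb9 encodes an ER-resident J-domain co-chaperone of BiP. It read -0.99 and -1.05 in healthy colon, -0.92 and -2.18 with n-6, -0.87 and -1.47 with ALA, and -2.42 and -1.30 with fish oil. The healthy arrays agreed within 0.06, while the n-6 pair spread over 1.25 around them. Both fish oil arrays lay below both healthy arrays, with a difference of -0.84 ± 0.55 (SE, 95% interval -2.13 to 0.45). Without fish oil array 1, the dimmest array, that difference was -0.28.

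Herpud1 encodes a membrane protein that takes part in ER-associated degradation. The healthy arrays read 2.48 and 2.45, the n-6 arrays 2.77 and 2.75, the ALA arrays 3.36 and 2.41 and the fish oil arrays 2.0 and 3.12. The n-6 pair lay above the healthy pair by little, and the other pairs enclosed both. The n-6 excess was 0.30 (95% interval -0.83 to 1.42), with an adjusted p of 0.824 in limma. The fish oil arrays differed by 1.13, against 0.42 for the range of the group means.

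**Figure D1:**
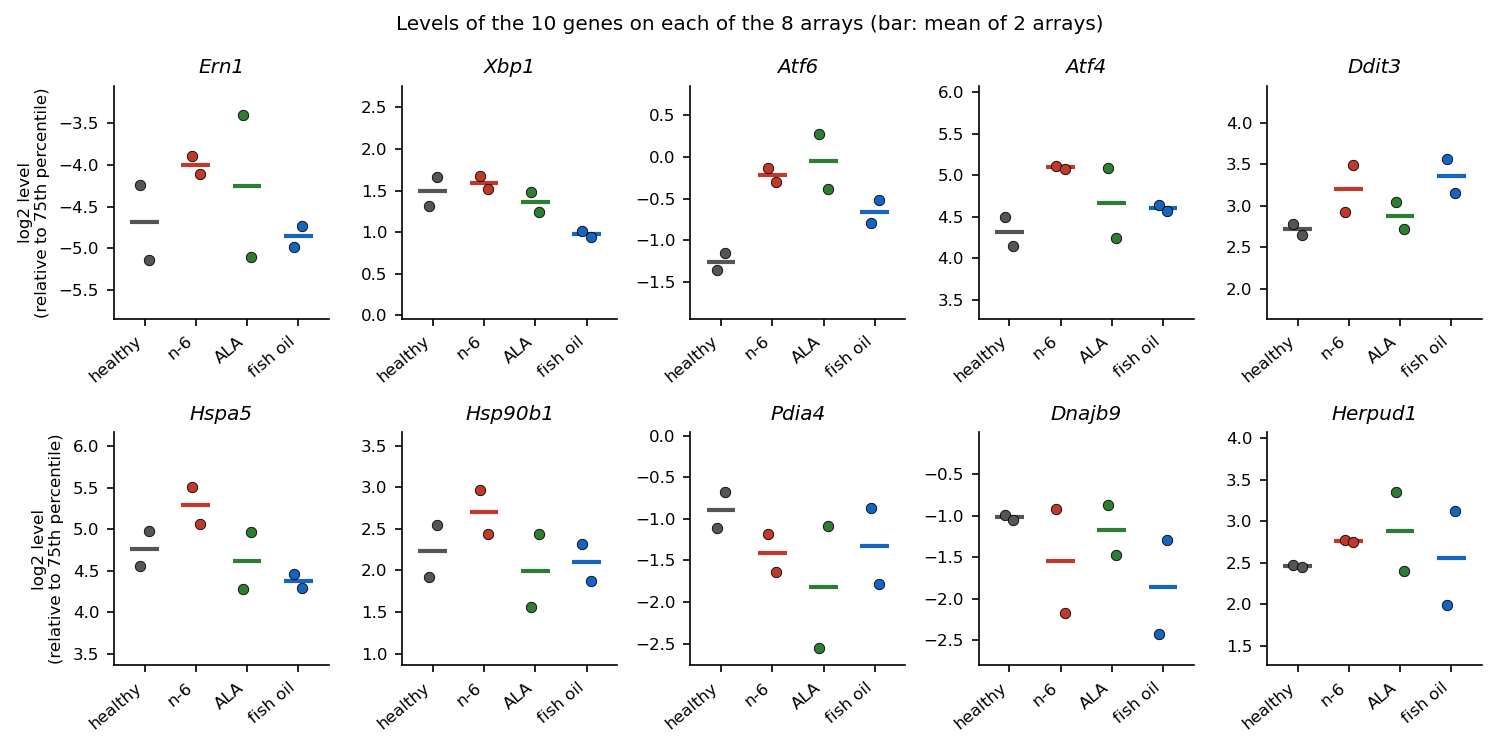
Log2 level (relative to the array's 75th percentile) of the 10 genes on each array, by group, with points for arrays and bars for the mean of 2 arrays; each panel spans the same log2 range. All 6 colitis arrays lie above both healthy arrays for Atf6, while for Ern1 the ALA arrays stand 1.70 apart.

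Side by side, the means of most of the 10 genes were higher in n-6 colitis than in healthy colon or in the n-3 groups. Against healthy, 8 were higher and 2 lower with n-6, where 51.6% of all genes were higher, and the median difference was 0.48 against 0.03 over all genes. Without overlap between the groups' arrays were 6 higher genes (Hspa5, Ddit3, Atf4, Atf6, Ern1, Herpud1) and 1 lower gene (Pdia4). Of all genes, 23.8% were higher and 21.7% lower without overlap. In fish oil against n-6, 2 were higher and 8 lower, where 49.5% of all genes were lower, with a median of -0.46 against 0.01. The arrays did not overlap for 6 lower genes (Hspa5, Hsp90b1, Atf4, Atf6, Xbp1, Ern1) and for no higher gene, with 23.6% of all genes lower without overlap. In ALA against n-6, 7 were lower and 3 higher, where 43.9% of all genes were lower, with a median of -0.29 against 0.07, and 3 did not overlap, all lower (Hspa5, Hsp90b1, Xbp1; 13.2% of all genes). These 3 comparisons share the n-6 arrays, so a high n-6 array raises the first and lowers the other 2.

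Against healthy, the n-3 groups showed no common side. In ALA colitis 5 of the 10 genes were higher and 5 lower, where 53% of all genes were higher, with a median of 0.02 against 0.04 over all genes, and only Atf6 did not overlap (22.3% of all genes were higher without overlap). In fish oil colitis 4 were higher and 6 lower, where 49.5% of all genes were lower, with a median of -0.15 against 0.01. Ddit3, Atf4 and Atf6 were higher and Hspa5, Xbp1 and Dnajb9 lower without overlap, where 18.3% of all genes were higher and 20.3% lower. Between the n-3 diets, Atf6 and Xbp1 were higher and Ddit3 lower in ALA without overlap (25.1% and 20.5% of all genes), by 0.61, 0.38 and -0.47. In the authors' deposited table the Atf6 difference was on the other side, at -1.39. There both ALA arrays, and no fish oil array, lay far from the bright probe. The largest gap between ALA and fish oil means was that of Dnajb9, 0.69 (95% interval -0.60 to 1.98), on overlapping arrays. Over the 3 colitis groups together, 6 were higher and 4 lower than healthy, where 53.5% of all genes were higher, with a median of 0.15 against 0.04.

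**Figure D2:**
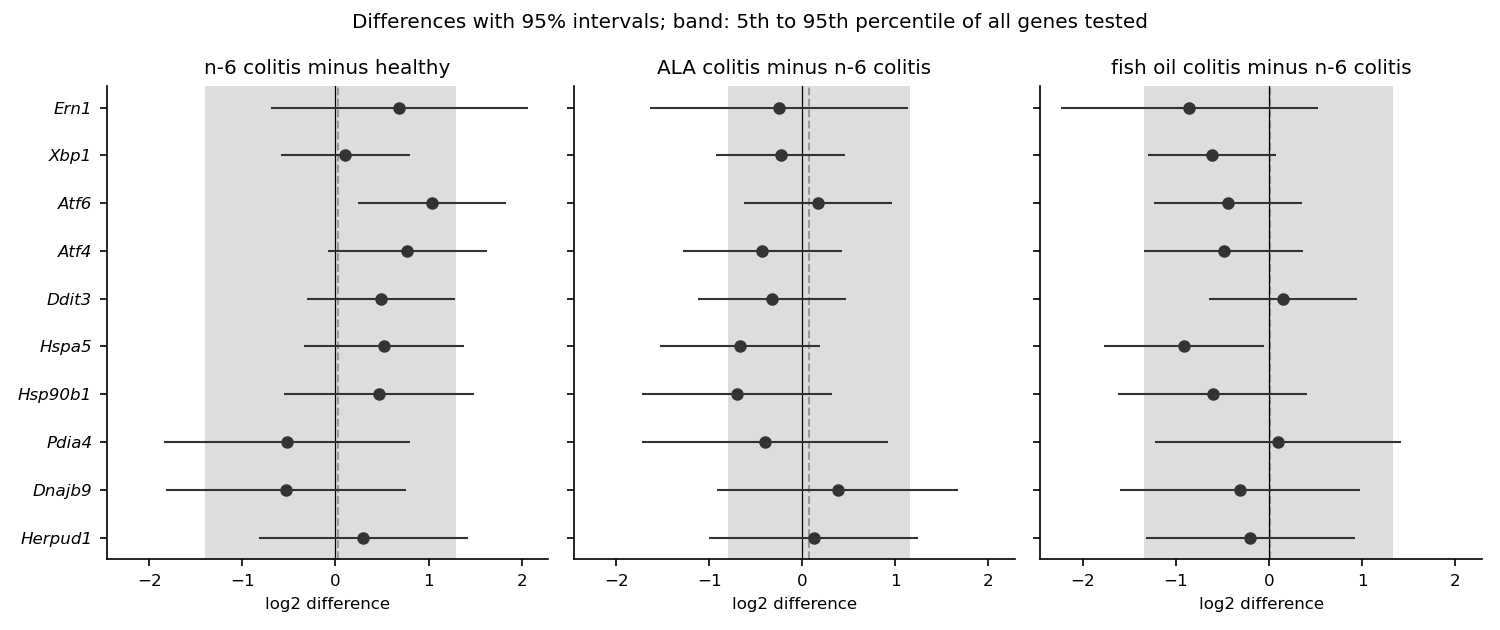
Log2 difference of each gene (points) with its 95% interval from limma (lines) in 3 comparisons; the grey band spans the 5th to 95th percentile of all 18165 genes and the dashed line is their median. In fish oil against n-6 the interval of Hspa5 ends at -0.05, and in n-6 colitis against healthy that of Atf6 begins at 0.24.

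The spread between arrays was large beside these differences. For 6 of the 10 genes (Hsp90b1, Atf4, Ern1, Dnajb9, Herpud1, Pdia4) the widest gap between 2 arrays of 1 group exceeded the range of the 4 group means. The median gap between paired arrays over the 10 genes was 0.76 with ALA, where all genes had 0.48. It was 0.35 in healthy colon, 0.34 with fish oil and 0.33 with n-6, against 0.34, 0.39 and 0.52 over all genes. ALA array 1 was the lowest of the 8 for Hspa5, Hsp90b1 and Pdia4 and the highest for Atf6, Ern1, Dnajb9 and Herpud1.

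**Figure D3:**
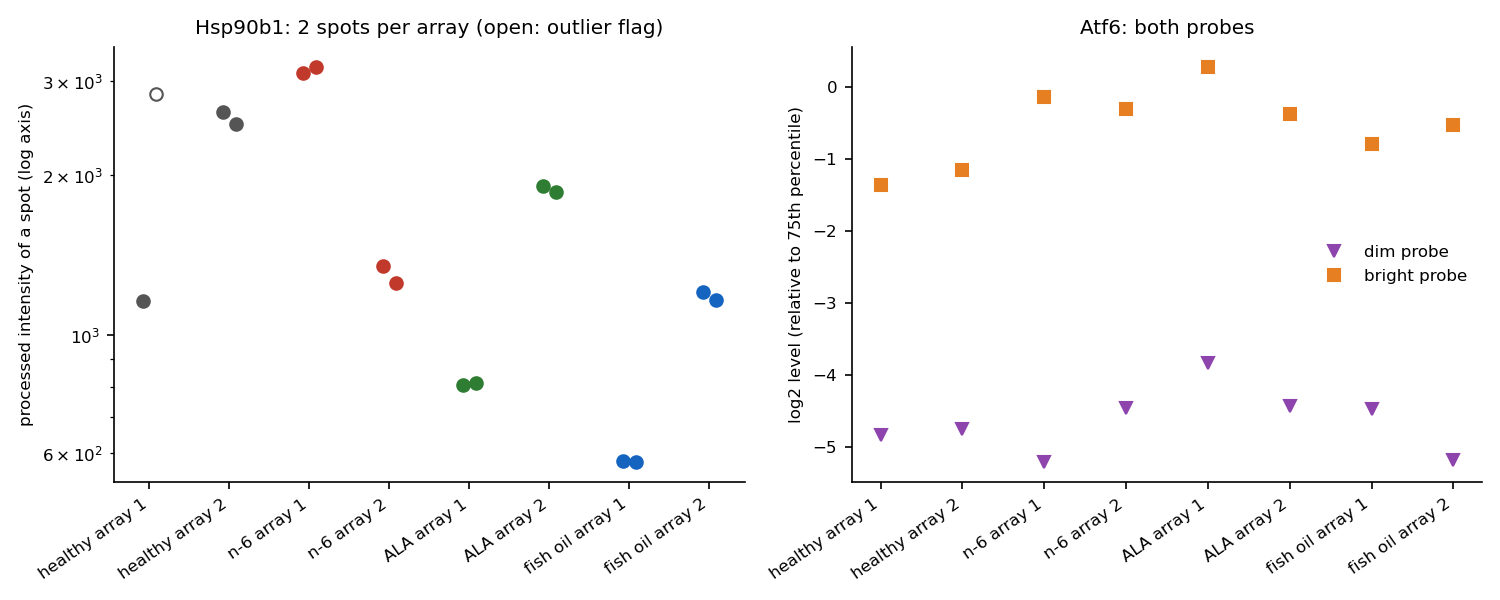
Left, processed intensity (log axis) of the 2 Hsp90b1 spots on each array, with the open circle marking the spot flagged as an outlier; right, log2 level of both Atf6 probes on each array. The Hsp90b1 spots of healthy array 1 read 1159 and 2842, and only the bright Atf6 probe has its healthy arrays below all 6 colitis arrays.

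Genes were also ranked by how closely their levels, centred on their own mean over the 8 arrays, followed those of Hspa5. The measure was the root mean square difference over 8 arrays, computed for 13174 named genes. Among the 10 genes, the closest pair was Hspa5 and Hsp90b1 at 0.17, followed by Hspa5 and Xbp1 at 0.30 and by Ddit3 and Atf4 at 0.33. With the outlier-flagged spot of Hsp90b1 kept, that pair stood at 0.27 and was still the closest, but Hsp90b1 held rank 220 among all genes in place of rank 9. The 5 genes most like Hspa5 were Cd44 (a cell surface receptor for hyaluronan) at 0.11, Hyou1 (an ER chaperone) at 0.14, Pdia6 (a disulfide isomerase) at 0.15, and Mars1 (a methionyl-tRNA synthetase) and Glt8d1 (a glycosyltransferase) at 0.16 each. Xbp1 held rank 481, while Pdia4 held rank 4783 and Herpud1 rank 6853. These 5 genes, Hspa5 and Hsp90b1 all had their highest level on n-6 array 1 and their lowest on ALA array 1. Points of 1 array share its RNA, hybridisation and scaling, and the ranks are given as a description.

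Hyou1 read 2.47 and 2.68 in healthy colon, 3.64 and 3.17 with n-6, 2.33 and 3.04 with ALA, and 2.53 and 2.43 with fish oil. As for Hspa5, both n-6 arrays stood above the other 6. Hyou1 was picked for levels like those of Hspa5 on these same arrays. This likeness and the next difference therefore follow from the choice. Fish oil minus n-6 was -0.92 ± 0.36 (SE, adjusted p 0.407 in limma). Its promoter window held 2 reverse matches to ERSE-II, beginning 188 and 88 bases before the start. The same search found no ERSE or ERSE-II for Cd44, Pdia6, Mars1 or Glt8d1, and an ATF4 core for Mars1. Whether promoters of Cd44, Pdia6 and Glt8d1 were among those searched is not reported here. The promoters shown for Hspa5, Hsp90b1 and Xbp1 are the 3 with an ERSE among the 8 matched genes, and these 3 were also the genes without overlap in ALA against n-6, a match noticed after the values were seen and not tested.

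**Figure D4:**
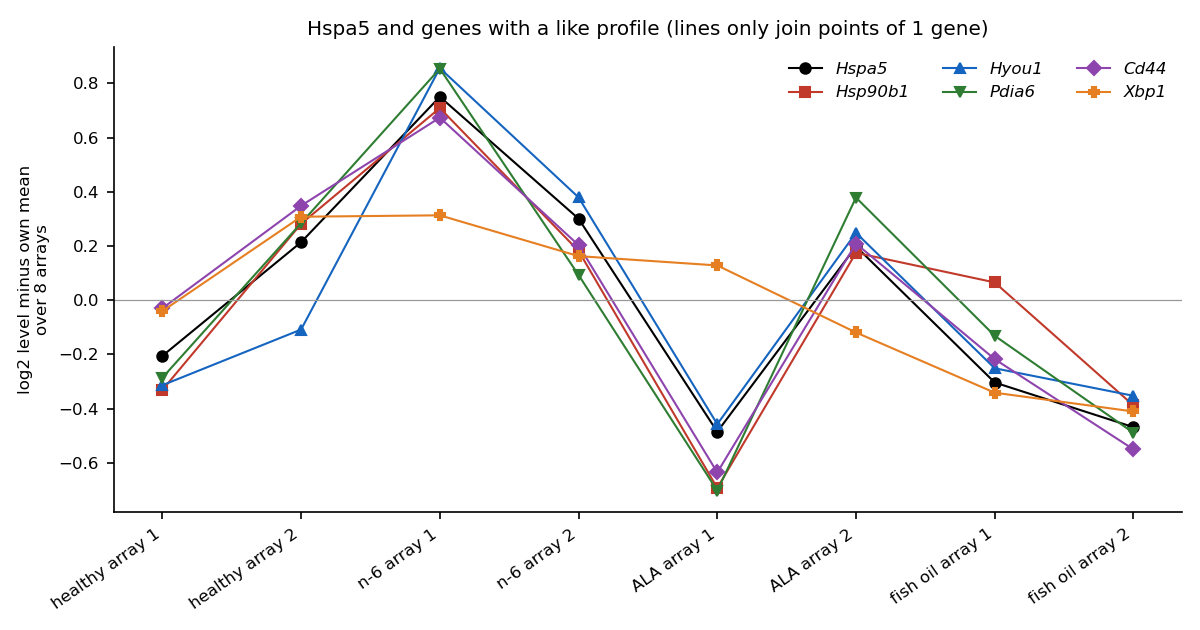
Log2 level minus the gene's own mean over 8 arrays for Hspa5, Hsp90b1, Xbp1, Hyou1, Pdia6 and Cd44, with arrays on the horizontal axis and lines only joining the points of 1 gene. The curves of Hspa5, Hsp90b1, Hyou1, Pdia6 and Cd44 are highest on n-6 array 1 and lowest or near lowest on ALA array 1, while Xbp1 is lowest on fish oil array 2.

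The genes closest to Ddit3 were others. Stx8 (a syntaxin of vesicle fusion) and Cope (a subunit of the COPI vesicle coat) came first, at 0.094 and 0.098, followed by Tsc2 (a subunit of the complex that restrains mTORC1) at 0.10 and by Vat1 and Hook3 at 0.11 each. All 5 were highest on fish oil array 1 or n-6 array 2, the 2 arrays with the smallest share of spots well above background (59.5% and 65.2%). Ddit3 too was highest on these arrays, and the part of signal strength in this was not tested. Atf4 held rank 1628 for likeness to Ddit3 and Hspa5 rank 7419.

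Beyond the 10 genes, 96 further genes of the pathway were measured out of 107 listed in 6 groups, and none passed the test in any of the 7 comparisons by limma. At an unadjusted p under 0.05, 8 were higher and 6 lower in n-6 colitis against healthy, where 6.6% of all genes were higher and 7.74% lower. With fish oil against n-6, 2 were higher and 4 lower (6.03% and 5.96% of all genes). Their median difference was 0.06 in n-6 colitis against healthy, where all genes had 0.03, and -0.12 in fish oil against n-6, against 0.01. In ALA against n-6 it was -0.04 against 0.07, with 1 higher and 2 lower at that limit (3.18% and 2.65% of all genes).

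In the PERK arm and integrated stress response, 15 of 20 genes were higher and 5 lower in n-6 colitis against healthy, with a median of 0.31. The 3 genes of highest signal were Nfe2l2 (NRF2, an antioxidant transcription factor) at -1.12, Cebpb (a transcription factor of inflammation) at 1.5 and Ppp1r15a (GADD34, which reverses the translation block) at 0.79. Arrays of these 3 did not overlap. Over the 20 genes, 7 were higher and 2 lower without overlap, where 23.8% of all genes were higher and 21.7% lower. With fish oil, 13 of the 20 were lower than with n-6 and the median was -0.21. Slc7a11, a cystine transporter chosen after its values were seen, read -4.22 and -4.10 in healthy colon, 0.09 and -2.38 with n-6, 0.00 and -0.38 with ALA, and -3.19 and -2.85 with fish oil. All 6 colitis arrays lay above both healthy arrays, and ALA colitis exceeded healthy by 3.97 (95% interval 2.26 to 5.69, adjusted p 0.651 in limma).

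In the IRE1 arm with its paralogue and translocon targets, 9 of 17 genes were higher and 8 lower in n-6 colitis against healthy, with a median of 0.01. Rpn1 (an oligosaccharyltransferase subunit) differed by -0.33, Spcs1 (a signal peptidase subunit) by 0.50 and Ssr1 (a translocon-associated protein) by 0.22. In fish oil against n-6, 11 of 17 were lower, with a median of -0.22. Ern2, the IRE1 paralogue of mucosal epithelium, chosen after its values were seen, read 2.58 and 2.06 in healthy colon, -1.77 and 0.72 with n-6, 1.24 and 1.09 with ALA, and 2.70 and 1.83 with fish oil. Both n-6 arrays were below all others, by -2.84 against healthy (95% interval -4.65 to -1.03, adjusted p 0.202 in limma). The epithelial sum was lowest on n-6 array 1. On n-6 array 2 it was 381, above the 343 and 323 of the healthy arrays. The sum is linear, so the brightest genes weigh most in it, and the listed genes were split there. Epcam, Krt8, Vil1 and Cdx2 lay below both healthy arrays on n-6 array 2, and Cdh1, Krt19 and Lgals4 above both. The part of epithelial content in the Ern2 values was not tested.

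Among the ATF6 family, its site protease and the CREB3 family, 5 of 10 genes were higher and 5 lower in n-6 colitis against healthy, with a median of -0.11. Creb3 differed by 0.02, Mbtps1 (the site-1 protease that cuts ATF6) by -0.23 and Creb3l1 by -0.75. With fish oil, 8 of 10 were higher than with n-6, with a median of 0.36. Creb3l3, chosen after its values were seen, read -4.73 and -4.40 in healthy colon and between -3.31 and -1.98 on the 6 colitis arrays, with a mean colitis difference of 1.84 (95% interval 0.91 to 2.76, adjusted p 0.318 in limma). It was not well above background on healthy array 1. Creb3l4, of the same family and also chosen after its values were seen, lay on the other side, with -2.79 and -1.61 in healthy colon and between -4.99 and -2.77 on the colitis arrays. Its n-6 difference from healthy was -2.35 (95% interval -3.85 to -0.86, adjusted p 0.201 in limma), and it was not well above background on fish oil array 1.

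Of the other ER chaperones and foldases, 13 of 21 were higher and 8 lower in n-6 colitis against healthy, with a median of 0.15. P4hb (a disulfide isomerase) differed by -0.73, Ppib (an ER cyclophilin) by 0.58 and Fkbp2 (a prolyl isomerase) by 0.61, so genes of like task lay on both sides, as Hspa5 and Pdia4 did. In fish oil against n-6, 14 of 21 were lower, with a median of -0.30, and in ALA against n-6 also 14, with a median of -0.28. Arrays did not overlap for 10 lower genes and 1 higher gene in the former (23.6% and 23.1% of all genes).

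The genes of ER-associated degradation showed medians near 0 in all 3 of these comparisons. In n-6 colitis against healthy, 8 of 19 were higher and 11 lower, with a median of -0.02. The 3 with the highest signal were Selenok (an ER selenoprotein) at 0.33, Ubxn4 (a VCP-binding ER protein) at 0.32 and Ube2g2 (a ubiquitin-conjugating enzyme) at 0.13. The medians were -0.07 in fish oil against n-6 and 0.03 in ALA against n-6. Of the 9 genes of ER stress linked cell death, 3 were higher and 6 lower in n-6 colitis, with a median of -0.06, and Bak1, Bbc3 and Bax differed by -0.06, -0.15 and 0.37. Bcl2, which restrains apoptosis and was chosen after its values were seen, was 1.45 higher in ALA than in n-6 (95% interval 0.63 to 2.27, adjusted p 0.834 in limma). It was not well above background on either fish oil array.

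**Figure D5:**
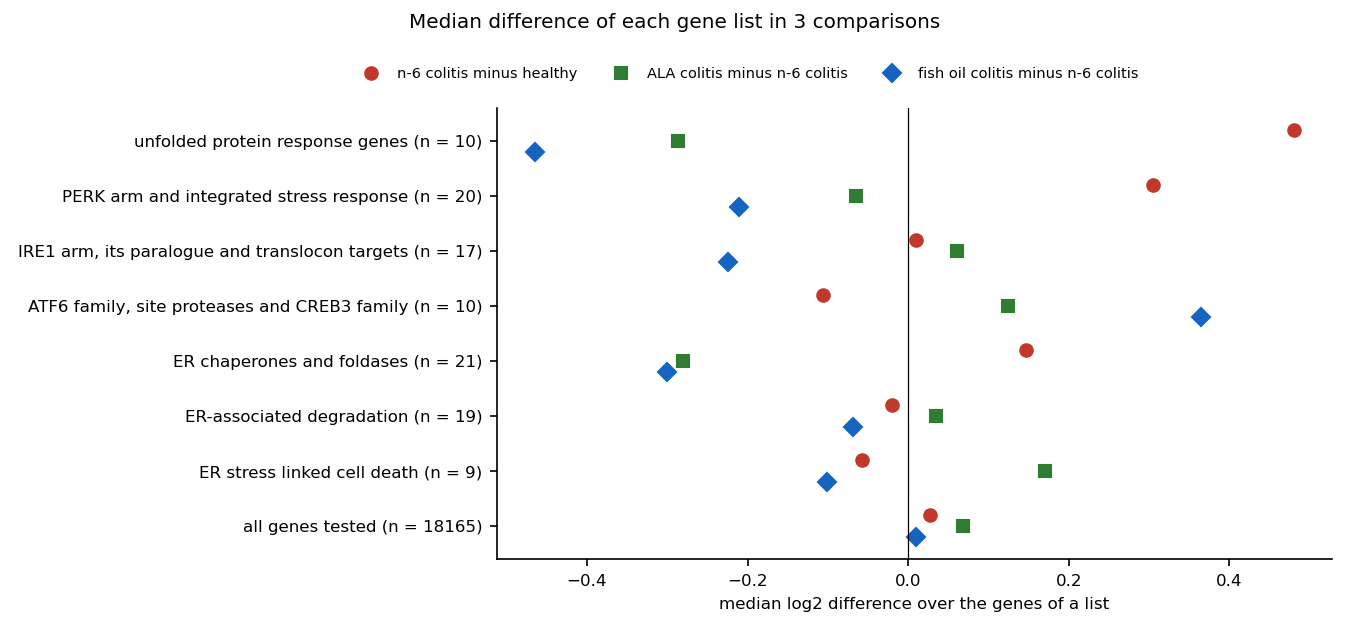
Median log2 difference over the genes of each list (rows, with the number of genes measured) in 3 comparisons, beside all genes tested. The 10 unfolded protein response genes have medians of 0.48, -0.29 and -0.46, and the list of ER-associated degradation lies within 0.07 of 0 in each.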

How the data were processed

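The scanner files hold spot intensity values made with Agilent Feature Extraction 11.5.1.1, background-subtracted and not scaled between arrays, per the file headers. A deposited value table of log2 values per gene served as an alternative; its column medians ran from -1.30 to -1.19 over the genes tested, and the way the authors joined probes is not stated there. Control and outlier-flagged spots were left out and spots of a probe averaged. The level was log2 of processed intensity minus the array's 75th percentile. Probes were kept if both arrays of any group showed them well above background (20801 of 30367 probes, of which 20793 had a value on every array), and the brightest probe represented a gene. All 8 arrays entered 1 limma 3.58.1 fit in R 4.3.3 (4 residual and 3.02 prior degrees of freedom), with Benjamini-Hochberg adjustment at 0.05 and 95% intervals. The fit was tried on 20 simulated sets with 200 changed genes, for n-6 colitis against healthy. It called 0.373% of genes changed by 1 log2 unit, 21.3% at 2 units and 89.7% at 4, with a mean of 5.15 false calls. No depth applies to arrays, whose number limits precision.

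Members and lists were chosen with earlier results of these data known. Named were the 10 members, of each of 6 pathway lists up to 4 genes past the threshold and the 3 with the highest signal, and the 5 genes most like Hspa5 and Ddit3. Tried as alternatives were normexp, median and quantile scaling, the deposited table, 2 filters, the mean of probes, single probes, a trended robust prior, only the groups compared, the replicate number as a block, each array left out and, added after seeing the data, outlier spots kept. Promoters were searched with Python 3.11.15. Sequences of 7 of the 11 probes are not reported here.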

Additional observations from a re-analysis of the deposited data

How the results depend on the processing

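The call count of the members did not change under the 12 of 20 alternatives that left out no single array. Among them, the fit on only the groups compared used the arrays of those groups alone. By limma, 0 of 10 genes passed there in each of 7 comparisons. Where signal on all 8 arrays was required this covers 9 genes, since Ern1 was not tested. Of the wider pathway genes 0 passed as well. Of 70 member differences, 36 kept their sign under every alternative, and 63 of 1393 recomputed values had another sign, none of them past the threshold. With no array left out singly, the Atf6 difference of n-6 colitis from healthy ran from 0.50 to 1.30, the latter in the deposited table. When each array was left out it ran from 0.93 to 1.14, and it was -0.04 for the dim probe by itself. The Atf6 difference of ALA colitis from healthy ran from 0.04, in the deposited table, to 1.23. With an array left out it ran from 0.88 to 1.54. The Hspa5 difference of fish oil from n-6 ran from -1.04 to -0.91, and from -1.14 to -0.69 with an array left out. That of Dnajb9 from healthy in fish oil ran from -1.4 to -0.28 with an array left out.

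The number of all genes called in n-6 colitis against healthy was 7, but 69 with normexp, 29 with a trended robust prior, 17 with median scaling, 13 with the replicate block, 4 with no filter, 2 in the authors' deposited table, 0 with only the groups compared and 0 to 8 with an array left out. In fish oil against n-6 it was 7, but 8 with quantile scaling or single probes. It was 6 with the deposited table and 5 with no filter, a trended robust prior or the replicate block. With normexp or signal required on all 8 arrays it was 4, and with only the groups compared 0. With any array left out it was below 7. In ALA against n-6 it was 6, but 4 with normexp and 0 with the deposited table, no filter, the mean of probes, only the groups compared, the block or any array left out. In the other 4 comparisons it was 0 to 2 under every setting. Median scaling moved the median of all genes in n-6 colitis against healthy from 0.03 to 0.16. Normexp moved that of fish oil against n-6 from 0.01 to 0.23. The cause was not tested. Deviations of same-numbered arrays correlated at -0.166 to 0.467 over the 6 pairs of groups, over 0.1 in 3 of them, so the numbers were not taken to pair the arrays. With the replicate number as a block, 0 of the 10 genes passed, and the adjusted p of Atf6 there was 0.265. Low signal limits Ern1 and the dim Atf6 probe.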
